A study of Drosophila melanogaster with 2 samples.

Results

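The 10 genes N, numb, neur, E(spl)mdelta-HLH, E(spl)m8-HLH, Su(H), H, mam, kuz and fng of the Notch pathway were examined for places bound by the Dati protein, out of 13945 protein-coding genes on the 6 main chromosome arms of Drosophila melanogaster. The genes were a list of pathway names picked with earlier results of the same data known. Every place was collected whose summit fell inside the gene or up to 5000 bp from either end. The data are chromatin immunoprecipitation and sequencing (ChIP-seq) of whole embryos of the strain dati-GFP, aged 8 to 24 hours, which carry dati fused to eGFP, a green fluorescent protein tag which is what the antibody binds. All chromatin came from 1 group, in 2 biological replicates of the transgenic strain, and 1 control alignment shared by both per the deposited documentation, so no genotypes, stages or treatments were compared. The age comes from the source label, and another age label gives an hour count too large for an embryo. Dati is a zinc finger protein. The embryos were whole, so a place may be bound in a few cells or in many, and cells in which Notch signals were not told apart from the others.

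Notch is a receptor that passes signals between touching cells. After binding a ligand it is cut by the ADAM protease encoded by kuz and then within the membrane, and its freed inner part joins Su(H), the DNA-binding protein of the pathway, and mam, a co-activator, to switch on targets such as the bHLH repressors of the E(spl) complex. H is the co-repressor that binds Su(H) in the absence of a signal, fng modifies the sugars on Notch, neur is a ubiquitin ligase that drives ligand uptake in the sending cell, and numb is a Notch inhibitor that is inherited by 1 daughter of an asymmetric division. In the embryo the pathway is known for choosing between neural and epidermal fates and between the daughters of neural precursors.

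Places came from the set thresholded on the irreproducible discovery rate (IDR) over both replicates, and from ranked lists without that threshold. In the thresholded set no place had an IDR above 0.0100, by its value in the pooled ranked list. The height of each place is the authors' signal value, deposited without a stated scale, so it was compared only within a list, or side by side between lists. Sequencing depth is unknown, since no file gives reads per place. Thresholded sets also exist for each replicate alone, called its own set here, and as a conservative set made by pairing the replicates. At the 11 thresholded places described here the pooled signal was 0.945 to 1.05 times the sum of the signals in replicates 1 and 2. All positions are counted from 1 on build dm6.

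Of the 10 genes, 6 carried at least 1 thresholded place by the rule, with 11 places in all: 3 at mam, 2 each at N, numb and neur, and 1 each at E(spl)mdelta-HLH and E(spl)m8-HLH. Among all protein-coding genes, 25.4% carried 1. Su(H), H, kuz and fng carried none. The median signal of the 11 places was 117.9, against 78.6 over the 1892 thresholded places of the arms, and 8 of the 11 lay above that median. Promoters, taken as within 500 bp of any annotated start site, held 5 of the 11 summits, and introns held 6, against 46.2% and 36.0% of all thresholded summits.

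The sequence of the summit and 50 bp to each side is shown for 6 of these places, from the RefSeq Release 6 assembly, 5′ to 3′ on the plus strand. They are the strongest place of N, numb, neur and both E(spl) genes, and the companion place of numb, which alone held an N-box. Capitals mark matches, on either strand, to the letters searched and spelled out further on.
N, intron, chrX:3162453-3162553: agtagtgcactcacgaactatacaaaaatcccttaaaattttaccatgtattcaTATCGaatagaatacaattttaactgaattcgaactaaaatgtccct
numb, promoter, chr2L:9449582-9449682: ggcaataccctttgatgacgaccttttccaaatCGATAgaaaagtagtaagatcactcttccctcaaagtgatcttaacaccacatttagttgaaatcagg
numb, second place, chr2L:9449100-9449200: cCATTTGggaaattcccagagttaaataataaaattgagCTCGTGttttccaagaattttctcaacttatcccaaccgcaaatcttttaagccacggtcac
neur, intron, chr3R:9031941-9032041: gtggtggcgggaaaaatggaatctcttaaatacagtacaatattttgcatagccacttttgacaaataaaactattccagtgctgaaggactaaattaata
E(spl)mdelta-HLH, upstream, chr3R:25996619-25996719: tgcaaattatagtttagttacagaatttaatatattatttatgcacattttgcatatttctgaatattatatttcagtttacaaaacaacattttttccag
E(spl)m8-HLH, downstream, chr3R:26042444-26042544: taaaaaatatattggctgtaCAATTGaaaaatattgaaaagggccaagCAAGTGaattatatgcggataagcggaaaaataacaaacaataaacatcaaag

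**Figure D1:**
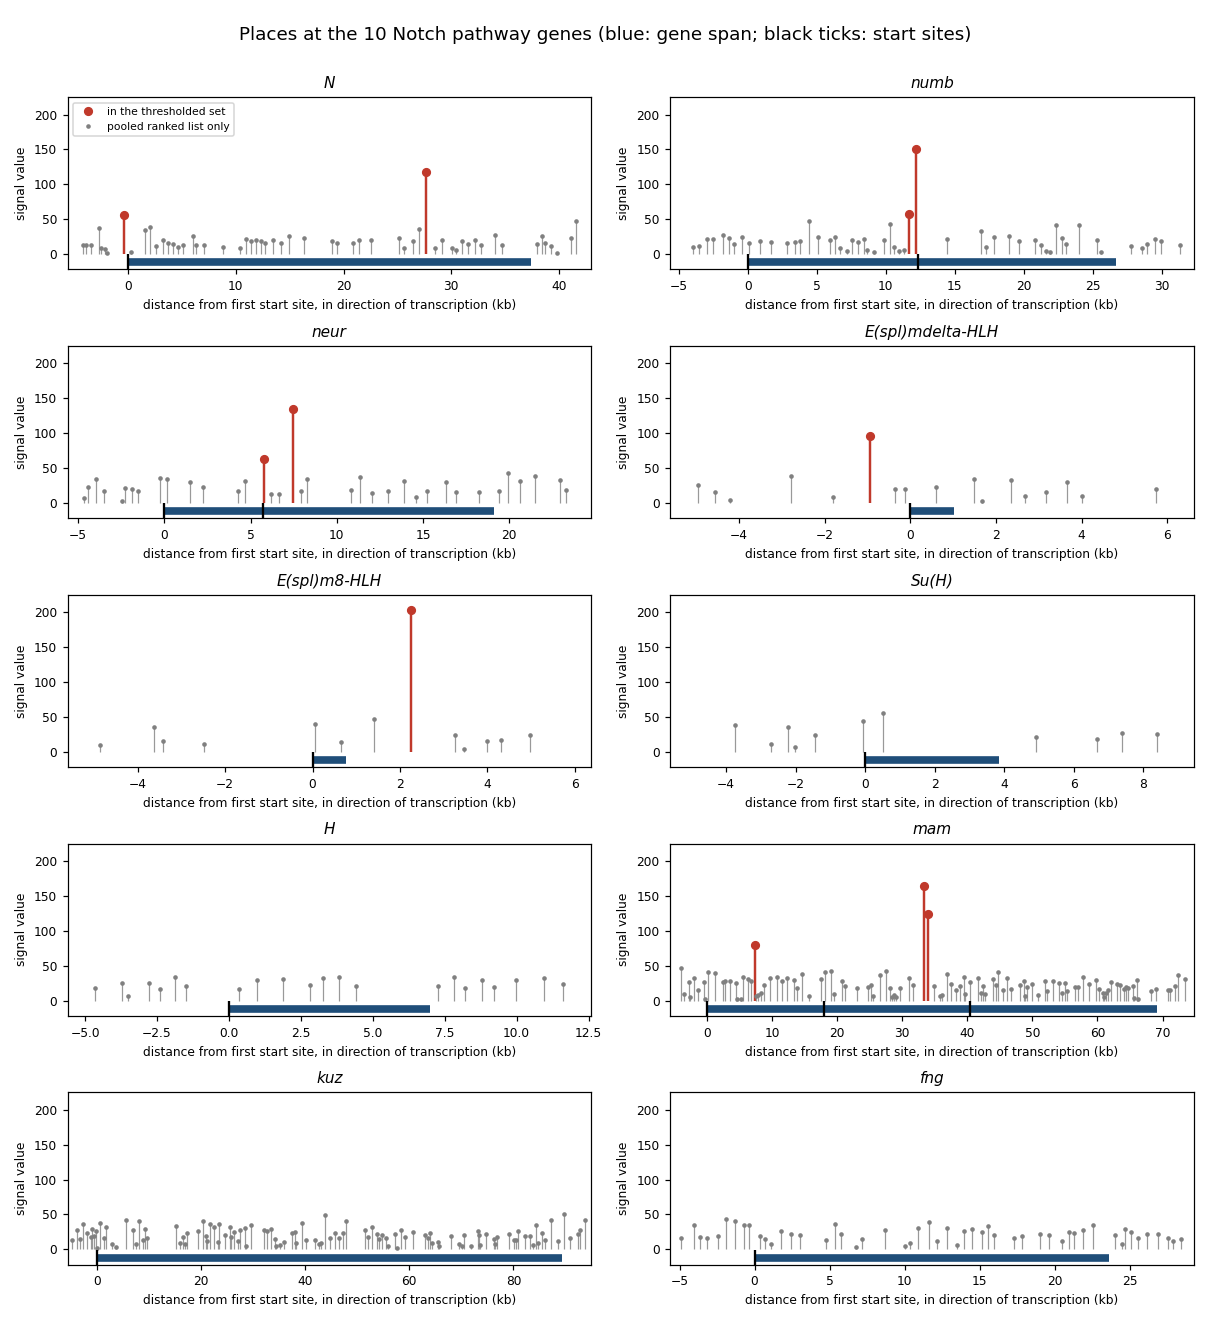
Signal value of every place of the pooled ranked list (vertical axis) against its distance from the first start site in the direction of transcription (horizontal axis, kb), 1 panel per gene; red places are in the thresholded set, grey ones only in the ranked list, the blue bar is the gene span and black ticks are start sites. The strongest place of each of the 6 genes with red places lay between 95.7 and 202.9, and no grey place in any panel was above 55.6.

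The receptor gene N (FBgn0004647, X 3134870 to 3172221, plus strand) had its stronger place deep in the gene and a weaker one at its promoter. The intronic place at X 3162371 to 3162634 had a pooled signal of 117.9, which ranked 478 of 156658, with 58.8 in replicate 1 and 58.3 in replicate 2. Its summit was 27633 bp downstream of the only start site of N, and the start sites of CG18508, Fcp3C, CG3939 and dnc were nearer, the first of these at 10637 bp. The promoter place at X 3134345 to 3134608 had a signal of 55.4, with 31.3 in replicate 1 and 24.1 in replicate 2. Its summit lay 393 bp upstream of N, inside the neighbouring gene kirre, and no other protein-coding start site was nearer. The intronic place was in the own set of each replicate, and the promoter place was in neither and not in the conservative set.

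The Notch inhibitor gene numb (FBgn0002973, 2L 9437469 to 9464184, plus strand) was bound beside the downstream one of its 2 annotated start sites. The place at 2L 9449500 to 9449763 had a pooled signal of 151.1, with 87.4 in replicate 1 and 57.0 in replicate 2, and its summit was 198 bp upstream of that start site. A companion at 2L 9449018 to 9449281 had 57.8, with 27.2 and 29.7 in replicates 1 and 2, and its summit was 680 bp upstream of the same start site. Both summits lie inside the span of numb, the weaker one in an intron, and no start site of another protein-coding gene was nearer to either. The stronger one was in both replicates' own sets, and the weaker one in the conservative set but in neither replicate's own set. No thresholded place lay at the upstream start site.

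The ubiquitin ligase gene neur (FBgn0002932, 3R 9020348 to 9039471, minus strand) had a weaker place at its downstream start site and a stronger one farther into the gene. The place at 3R 9031859 to 9032122, in an intron 1740 bp downstream of that start site, had a pooled signal of 134.5, with 56.4 in replicate 1 and 76.2 in replicate 2. The place at 3R 9033556 to 9033819 had 63.6, with 28.5 and 36.4 in replicates 1 and 2, and its summit was 43 bp downstream of the start site. For neur, replicate 2 had the higher value at both places. Each was nearest to neur itself, and only the intronic one was in the replicates' own sets.

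The co-activator gene mam (FBgn0002643, 2R 13991203 to 14060356, plus strand) had 3 thresholded places, all in introns and none within 5000 bp of a start site of mam. A pair of neighbouring places at 2R 14024423 to 14024686 and 2R 14025015 to 14025278 had pooled signals of 164.8 and 124.2. The first had 89.3 in replicate 1 and 72.8 in replicate 2, the second 67.7 and 63.7, and both were in each replicate's own set. Their summits lay 7108 and 6516 bp upstream of the nearest start site of mam, and CG18371, whose start site lies within the span of mam, was nearer, at 4065 and 3473 bp. The third, at 2R 13998448 to 13998711, had 80.0, with 34.0 in replicate 1 and 43.5 in replicate 2, and was nearest to a start site of mam, 7377 bp downstream of it. It was in the conservative set but in neither replicate's own set.

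The E(spl) complex on 3R holds the bHLH repressor genes that Notch switches on, and its outermost members each had 1 place nearest to another gene. The strongest place of all 11 was in the window of E(spl)m8-HLH (FBgn0000591, 3R 26040240 to 26041008, plus strand), at 3R 26042362 to 26042625, with a pooled signal of 202.9, rank 142 of 156658, and 106.9 and 93.9 in replicates 1 and 2. It lay beyond the end of E(spl)m8-HLH, 2254 bp downstream of its start site, inside gro and 147 bp upstream of one of the start sites of gro. The gene gro encodes the co-repressor Groucho, which the E(spl) proteins recruit. E(spl)mdelta-HLH (FBgn0002734, 3R 25997621 to 25998633, plus strand) had a place at 3R 25996537 to 25996800 with a signal of 95.7, 952 bp upstream of its start site and inside CG43116, whose start site was 327 bp away. That place had 66.6 in replicate 1 and 30.3 in replicate 2, and it was in replicate 1's own set only.

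Over all arms the pooled ranked list held 154044 places and the thresholded set 1892. The complex was taken from 5000 bp before E(spl)mdelta-HLH to 5000 bp after gro. There, 3 of 86 places of the pooled ranked list were in the thresholded set. The one between the E(spl)mdelta-HLH and gro places, at 3R 26008977 to 26009240, lay in intergenic sequence 1784 bp upstream of E(spl)malpha-BFM, a Bearded family gene. It had a signal of 106.8, with 54.8 in replicate 1 and 50.6 in replicate 2, and was in both own sets. Replicate 1's own set held 1 further place, 1396 bp upstream of E(spl)m3-HLH, with 35.1 in replicate 1, while the matching place in replicate 2 had 14.2. The start site of E(spl)m8-HLH itself had a weaker place of 39.6, which did not pass the threshold.

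**Figure D2:**
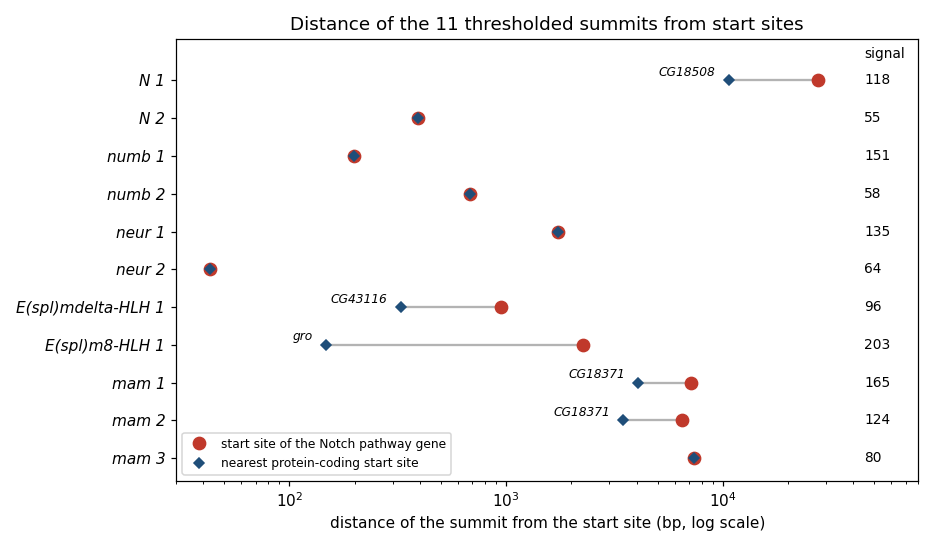
Distance in bp, on a log scale, of each of the 11 thresholded summits from the nearest start site of the Notch pathway gene (red) and from the nearest protein-coding start site of any gene (blue, named where it is another gene), with the signal value at the right. In 6 rows the markers coincide, and in 5 rows CG18508, CG43116, gro or CG18371 was nearer.

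The nearest protein-coding start site was that of the Notch pathway gene at 6 of the 11 places. These were both places of numb, both of neur, the promoter place of N and the third place of mam. At the other 5 it belonged to CG18508, CG43116, gro or, at the paired places, CG18371. The strongest place, at gro, and the strongest place of N, of mam and of E(spl)mdelta-HLH were among these 5. The gene a place acts on is not given by distance, and was not measured.

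The 4 genes without a thresholded place still had places in the ranked lists, none of them above 55.6. Su(H) (FBgn0004837, 2L 15039488 to 15043334, plus strand) came closest, with a place in its coding sequence at 2L 15039875 to 15040138 of signal 55.6 and an IDR of 0.0128. It had 23.5 in replicate 1 and 32.7 in replicate 2, and it was in the conservative set although not in the thresholded set over both replicates. The promoter place of N, at 55.4, had almost the same signal and an IDR of 0.00787, and it was in the thresholded set over both replicates but not in the conservative set. Another place of 44.5 lay 48 bp upstream of the start site of Su(H).

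At kuz, fng and H no place was above 50.4. The highest value at kuz (FBgn0259984, 2L 13550139 to 13639411, plus strand) was 50.4, in a coding exon of the next gene, ics, and the highest inside kuz was 49.9, in an intron. That intronic place had 20.8 in replicate 1 and 30.9 in replicate 2. For fng (FBgn0011591, 3L 20925891 to 20949512, minus strand) the highest was 43.8, 1937 bp upstream of its start site, with 17.6 in replicate 1 and 29.8 in replicate 2. H (FBgn0001169, 3R 20621938 to 20628915, plus strand) had the lowest maximum of the 10 genes, 34.0, in a coding exon of CG5466, with 11.3 and 26.3 in replicates 1 and 2.

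Places of the ranked lists were numerous at all 10 genes. The pooled ranked list held 490 in their windows, from 11 at Su(H) to 114 at kuz, and a density of 7.94 per 10 kb at Su(H) to 15.5 per 10 kb at fng, against 11.5 over all arms. Their median signal was 19.9, against 18.3 for the whole list on the arms. The genes differed in how far the best place stood above the rest. The best place was 12.5 times the median of its window at E(spl)m8-HLH, 8.06 times at numb, 7.46 at mam, 7.40 at N, 6.61 at neur and 4.82 at E(spl)mdelta-HLH. At the genes without a thresholded place this ratio was 2.54 at kuz, 2.19 at Su(H), 2.06 at fng and 1.40 at H. The long gene kuz, with a span of 89273 bp, thus had the most places and no high one. At H the best and second place, 34.0 and 33.9, were almost equal. Thresholded places were mostly those of high signal, so the higher ratios at genes with one largely restate the split by threshold.

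The places at the start sites themselves were counted separately. The strongest pooled place within 500 bp of an own start site had a signal of 151.1 at numb, 63.6 at neur and 55.4 at N, which are the thresholded ones, so 3 of 10 genes were called there, against 7.59% of all protein-coding genes. It was 44.5 at Su(H), 41.5 at mam, 39.6 at E(spl)m8-HLH, 35.1 at fng, 27.0 at kuz, 20.0 at E(spl)mdelta-HLH and 16.2 at H. All 10 had a pooled place there, as did 84.3% of all protein-coding genes. The median over the 11750 genes with one was 26.0, with a lower quartile of 18.6 and an upper quartile of 35.6, and the median of the 10 was 40.5. E(spl)mdelta-HLH and H thus lay below the median and kuz just above it.

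The length of a gene bears on these counts, because a longer window has more room for a place. The median span of the 10 genes was 21373 bp, against 2166 bp over all protein-coding genes. Of the 6 with a span of at least 10000 bp, 4 carried a thresholded place, and among all genes of that length 40.6% did. Of the 4 shorter ones, 2 did, against 22.9% of shorter genes. Carrying 2 or more thresholded places was found at 4 of the 10, against 5.91% of all genes, and carrying a place of signal above 100 at 5 of the 10, against 11.0%. All 4 of the former and 4 of the 5 latter had spans of at least 10000 bp. The shares of all genes for these 2 counts were not matched for length. The limits of 10000 bp and of 100 were chosen after the values were seen, and none of these shares was tested, since the genes were picked with earlier results of the same data known.

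Places just inside and just outside the 5000 bp limit were few. The farthest thresholded place counted from outside a span was that of E(spl)m8-HLH, at 1486 bp from its end. Just outside, a place of signal 70.9 nearest to Pi3K92E lay 5279 bp from the span of H, one of 85.3 nearest to scat 6120 bp from numb, and one of 66.6 nearest to CG8067 7649 bp from mam. The nearest thresholded place was 29617 bp from Su(H), 34931 bp from kuz and 82012 bp from fng.

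The replicates gave like values at most of the 11 places. Dividing the signal of replicate 2 by that of replicate 1 gave a median of 0.941, with extremes of 0.456 at E(spl)mdelta-HLH and 1.35 at the intron of neur. Over the 1852 thresholded places found in both ranked lists the median was 0.897, and the 5th and 95th percentiles were 0.455 and 1.75. All 11 ratios were thus within that range, E(spl)mdelta-HLH just so, with 5.08% of places lower. Replicate 2 was higher at 4 places. With 2 libraries a difference at a single place has no test.

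By each replicate's own set, 7 of the 11 places were held by replicate 1 and 6 by replicate 2. Both own sets held 6 of the 11, against 35.9% of all thresholded places. Neither held 4, which were the weaker places of N, numb and neur and the third place of mam. The share of all thresholded places held by neither was not counted. In replicate 1's own set 6 of the 10 genes carried a place, against 18.1% of all genes, and in replicate 2's own set 5, against 14.0%. The gene lost in replicate 2 was E(spl)mdelta-HLH. In the conservative set 7 of the 10 carried a place, with Su(H) added, against 23.0%. Of the 11 places 10 were in the conservative set, against 79.6% of all thresholded places.

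**Figure D3:**
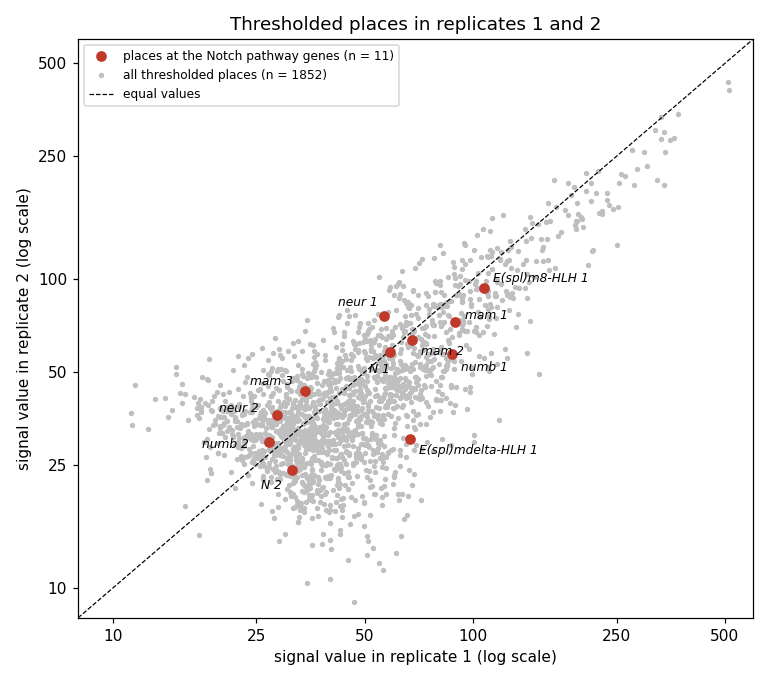
Signal value in replicate 2 (vertical axis) against replicate 1 (horizontal axis), both on log scales, for the 11 places at the Notch pathway genes (red, named by gene and order of signal) and the 1852 thresholded places found in both ranked lists (grey); the dashed line marks equal values. Of the red points, E(spl)m8-HLH lay highest, at 106.9 and 93.9, and E(spl)mdelta-HLH, at 66.6 and 30.3, lay farthest from the line.

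The sequence under the summits was searched for sites of pathway proteins and of promoter factors. No window of the 11, each the summit and 50 bp to each side, held a Su(H) site, written CGTGGGAA, CGTGAGAA, TGTGGGAA or TGTGAGAA and read on both strands, and 0.740% of all thresholded windows and 0.997% of windows at all protein-coding start sites held one. The E-box CANNTG, a site of bHLH proteins, was in 2 windows, those of E(spl)m8-HLH and the second place of numb, or 18.2%, against 37.2% of all thresholded windows and 43.7% at start sites. Its form CACGTG was in none of the 11 and in 0.899% of all thresholded windows. The N-box CACNAG, a site of E(spl) repressors, was in 1, the second place of numb, against 10.6% of all thresholded windows.

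The letters CGATA, a part of the promoter element DRE, were in 5 of the 11 windows (45.5%), against 13.5% of all thresholded windows and 23.6% at start sites. These were the intron of N, the promoter place of numb, the start site place of neur and the first and the third place of mam. The whole element, TATCGATA, which contains CGATA, was in none of the 11 and in 1.16% of all thresholded windows. GAGAG was in 1 window, at the third place of mam, against 10.4% of all thresholded windows. GCCAT (Pho core), CAGGTA (Zelda) and GGTCACAC (a core promoter motif) were in none, against 16.0%, 2.27% and 0.899% of all thresholded windows. The promoter place of N, the intron of neur, the E(spl)mdelta-HLH place and the second place of mam held none of the letters searched. A match is a string of letters and not a measured site.

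The windows were rich in A and T. Their mean GC content was 31.4%, against 36.3% over all thresholded windows, 42.8% in windows centred 500 bp to each side and 43.7% at start sites. It ran from 18.8% at the second place of mam to 43.6% at the start site of neur.

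**Figure D4:**
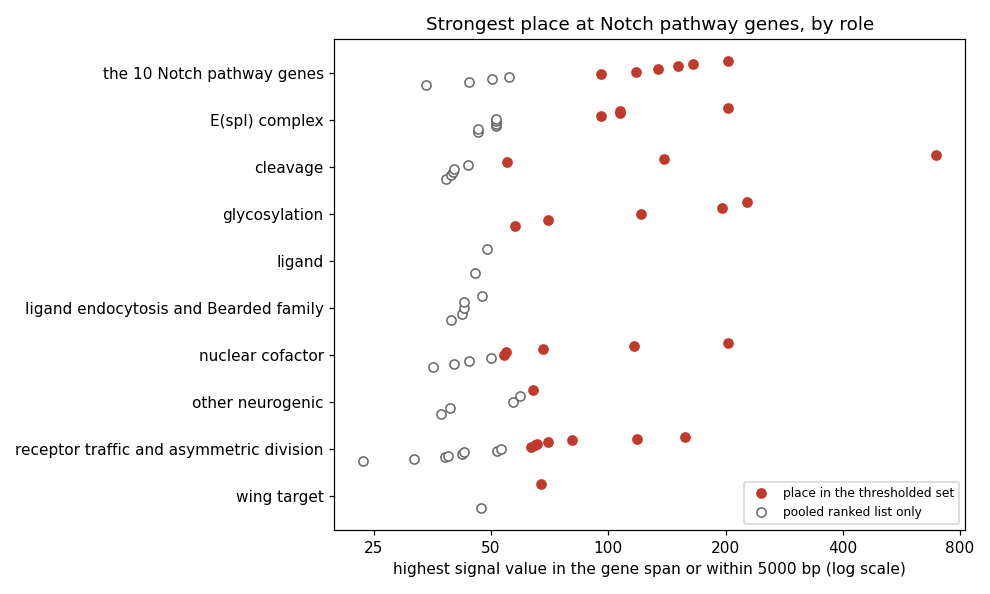
Highest signal value in the pooled ranked list within the gene span or 5000 bp of it (horizontal axis, log scale), 1 point per gene. The 10 genes are in the top row and the other pathway genes are shown by role. Filled points have a thresholded place, open points do not. The 2 other pathway genes without any place in the pooled ranked list have no point. The highest point, 696.2 at Kul, belongs to a place at the promoter of CG7601, and both ligand genes are open.

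A wider list of 63 other pathway genes was counted by the same rule. Of these, 26 (41.3%) carried a thresholded place, against 25.4% of all protein-coding genes, and they shared 23 strongest places because neighbours share windows. The place of gro and E(spl)m7-HLH was already counted at E(spl)m8-HLH, and that of E(spl)mgamma-HLH at E(spl)mdelta-HLH. The share of all genes was not matched for length. Among the genes without a thresholded place, 2 had no place in the pooled ranked list either. The strongest place was nearest to the gene's own start site at 12 of the 26. By role, 5 of 5 sugar-modifying genes carried a place, 3 of 8 genes for cleavage, 5 of 9 nuclear cofactors, 7 of 16 genes of receptor traffic and asymmetric division, 4 of 10 other E(spl) complex genes, 1 of 5 other neurogenic genes and 1 of 2 wing targets. None of the 2 ligand genes, Delta and Ser, did, and none of the 6 genes grouped as ligand uptake and Bearded family. Bearded family genes of the E(spl) complex were counted with that complex, and of these E(spl)malpha-BFM carried a place. The ligand uptake gene neur is among the 10 genes and carried 2. The highest values at the ligand genes in the pooled ranked list were 45.5 at Delta and 48.9 at Ser. Delta and Ser were named after their values were seen.

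Several of the strongest of these places were nearest to the start site of a gene outside the list. The window of Kul, an ADAM protease gene, held 696.2, 97 bp upstream of CG7601, and that of O-fut1, which adds fucose to Notch, held 227.2, 98 bp upstream of CG13018. Those of gro and E(spl)m7-HLH held the same place of 202.9 described above, at a promoter of gro itself. The place of 196.0 near frc, a nucleotide sugar transporter gene, was nearest to CG32176, and that of 157.0 near dsh, in an intron, to CG1737. The place of 139.1 near Fur1, a furin protease gene, was at a promoter of both genes, 202 bp from Vps33B and 230 bp from Fur1. Nearest to their own start sites were the places of egh (121.6), a glycosyltransferase gene, of Rab11 (118.2), an endosome GTPase gene, and of nej (116.1), which encodes the acetyltransferase CBP. E(spl)malpha-BFM and E(spl)mbeta-HLH shared the place of 106.8. The other sugar-modifying genes with a place were rumi (69.8), a glucosyltransferase gene, and brn (57.7), whose place was nearest to cib. The place of rumi was also counted for Usp12-46, among the genes of receptor traffic and asymmetric division. Its summit was 102 bp from the start site of rumi and 202 bp from that of Usp12-46. The wing target was ct (67.2) and the other neurogenic gene bib (64.2), each with an intronic place nearest to itself. The genes rumi, brn, ct, bib and Usp12-46 were named after their values were seen.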

How the data were processed

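ChIP-seq was measured in 2 replicates of 1 group. The authors deposited peak lists on dm6, per the labels, made from alignments of each replicate and 1 shared control, per the deposited documentation; no source used here names the aligner or the peak caller. Column 7 of each list is the authors' signal value, deposited on a scale not stated. The deposited score is the IDR on a scaled −log2 with a maximum of 1000. Deposited columns also gave the summit offset and, in ranked lists, the IDR as −log10. Another 24 columns of the ranked lists were not used here.

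Genes came from Ensembl release 115, without transposable elements; all 10 genes had the same span in RefSeq, and sequence is from the RefSeq Release 6 assembly, with dm6 coordinates. Of the 63 other names, 4 were matched through RefSeq synonyms. Work used Python 3.11.15 and pandas 2.3.3. Ranks run over the whole list by signal. Replicate values are those of the place of highest signal overlapping by at least 1 bp. No test was run: the genes, lists and motifs were chosen with earlier results of these data known. Named genes were all 10, the nearest and nearer genes at their places, and up to 12 other pathway genes of highest signal. Alternatives were other sets, windows, promoter distances, overlap, merging and nearest start site.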

Additional observations from a re-analysis of the deposited data

How the results depend on the processing

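The number of genes with a place, 6, lay between 4 and 7 under every alternative tried. The 11 places became 6 to 7 with 1 replicate's own set in place of both, and 6 when only places nearest to a start site of the gene itself counted. The 5 promoter places became 2 to 3 with 1 replicate's own set, 3 among the places above the median signal, 2 with no window around the span, 3 with the nearest start site and 3 with a promoter of 250 bp. Apart from the own sets of single replicates, these alternatives can only count fewer places, by construction. The own sets were thresholded separately and can hold places that the set over both replicates lacks, as upstream of E(spl)m3-HLH. Among 110 recounts for single genes 89 stayed within 1.5 times, 19 were lower and 2 higher: Su(H) in the conservative set and H with a 10000 bp window. Genes with no place to begin with could not go lower and add to those that stayed. All 19 lower recounts were at the 6 genes with a place. No paired analysis was possible because there is 1 group and no test. Depth is unknown, so a gene without a thresholded place cannot be called unbound.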

Other observations

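The letters GGGAA, on either strand, were in 6 of the 11 windows at the Notch pathway genes (54.5%), against 14.1% of all 1892 thresholded windows, 17.4% of windows 500 bp to each side and 13.8% of windows at protein-coding start sites. They were in both places of numb, both of neur, the promoter place of N and the first of mam. The string was picked out after the 11 sequences had been read, so the count is a description with no test.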
